A study of Homo sapiens with 4 samples.

Results

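The expressed ZNF zinc finger genes are the genes named ZNF with a number, with or without an ending letter, whose mean over the 4 arrays was at least 6 on the log2 scale. One probe set, the one with the highest mean, stood for each gene. The rule kept 327 of the 471 ZNF genes on the array, which is 69.4% of them, against 47.3% of all 14884 named genes. The mean was taken over both groups, so a gene near the limit could become a member through 1 group: 5 members had an origamicin mean under 6 and 5 others a mock mean under 6, while 317 reached 6 in both. By RefSeq biotype, 324 are protein-coding and 3 (ZNF271P, ZNF542P and ZNF767P) are transcribed pseudogenes. The cells were SH-SY5Y, an established human neuroblastoma line of sympathetic lineage. One group received origamicin, which the submitters describe as an inhibitor of protein disulfide isomerase, at 30 µM for 24 h, and the other (mock) received the solvent methanol for 24 h. RNA of 2 cultures per group was read on Affymetrix Human Gene 2.0 ST arrays. The labels call the cultures of a group biological replicates and do not mention separate passages; a p-value here covers only the variation among the 4 arrays.

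Most ZNF proteins are C2H2 zinc finger proteins, in which each finger folds around a zinc ion held by a pair of cysteines and a pair of histidines, and rows of such fingers read DNA sequence. Many also carry a KRAB domain, which recruits the corepressor TRIM28 and, through it, the histone methyltransferase SETDB1 to form silent chromatin, with transposable elements among the known targets. Many genes of the family lie in tandem clusters on chromosome 19, where they arose by duplication. Some proteins with a ZNF name work elsewhere, on RNA, in the nucleolus or on the ribosome.

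The arrays were close to one another. Over the 11883 genes tested, r was 0.994 between the origamicin arrays, 0.995 between the mock arrays and 0.991 to 0.992 between arrays of different groups. Noradrenergic markers, which define this line, were bright: 11 of the 12 on the array had a mean of at least 6, with TH, the first enzyme of catecholamine synthesis, as the exception. Their list mean was 9.84 and 9.86 in origamicin cells, against 10.1 and 10.2 in mock cells. Mesenchymal (S-type) markers, of the other cell type that such cultures can hold, averaged 6.23 and 6.13 in origamicin cells, against 5.90 and 5.93 in mock cells, with 4 of 8 at a mean of at least 6. None of the 6 glial and Schwann markers reached 6. In bulk RNA, fewer cells of a type and less RNA per cell cannot be told apart, and the part of these marker shifts in the ZNF values was not tested.

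Log2 changes of the ZNF genes (origamicin minus mock) had a median of -0.028, with a 10th percentile of -0.21 and a 90th percentile of 0.17. The median was -0.012 over the other genes with a mean of at least 6 and -0.0072 over all genes tested. The median size of the change was 0.097, against 0.099 for the other genes with a mean of at least 6. Between single arrays, the median size of the difference over the members was 0.10 to 0.13 for an origamicin against a mock array, 0.10 between the origamicin arrays and 0.087 between the mock arrays. Of the 327 genes, 131 were higher and the rest lower in origamicin cells. The share higher was 40.1%, against 47.9% of all genes tested and 45.7% of those with a mean of at least 6. Medians of the ZNF genes were 7.14 and 7.18 on the origamicin arrays, against 7.15 and 7.16 on the mock arrays, so the groups overlapped. Without origamicin replicate 1 the median change was -0.0082, against -0.010 over all genes tested. Without origamicin replicate 2 it was -0.047, against -0.0028.

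No ZNF gene passed the threshold. The fit with limma (moderated variances with a single prior, Benjamini-Hochberg adjustment over the 11883 genes) gave no member an adjusted p under 0.05 or under 0.1, and over all genes tested the percent called was 0 and 0.446. At an unadjusted p under 0.05 there were 37 members, or 11.3%, against 16.4% of all genes tested and 18.3% of the genes with a mean of at least 6. On the higher side these were 17 members (5.2%, against 7.99% of all genes tested), and on the lower side 20 (6.12%, against 8.42%). With equal array medians the split was 12 higher and 25 lower (11.3% in all, against 15.8% of all genes tested). Members at an unadjusted p under 0.05 were mostly higher without origamicin replicate 1 and mostly lower without origamicin replicate 2. The split over all genes tested is not given for these settings. Without mock replicate 1 the 37 became 23, and without mock replicate 2 they became 18, while the 1950 of all genes tested became 1270 and 1261. The origamicin and mock values did not overlap for 152 members, or 46.5%, against 48.6% of all genes tested. For 58 of them the origamicin arrays were the higher ones (17.7%, against 22.7%), and for 94 they were the lower ones (28.7%, against 25.8%). Among genes with a mean of at least 6 these shares were 25.7% and 31%.

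When the prior variance was allowed to follow the intensity (limma with an intensity trend, an alternative fit), 7 members passed an adjusted p of 0.05, or 2.14%, against 4.3% of all genes tested and 6.8% of those with a mean of at least 6. Of these, 5 rose (ZNF441, ZNF844, ZNF792, ZNF778 and ZNF142; 1.53%, against 2.14% of all genes tested) and 2 fell (ZNF804A and ZNF25; 0.612%, against 2.16%). At an unadjusted p under 0.05 this fit gave 59 members, or 18%, against 19.7% of all genes tested. The 7 adjusted calls were made with all 4 arrays. With 1 array left out, the log2 change ran from 0.60 to 0.76 for ZNF441 and from 0.39 to 0.51 for ZNF844. It ran from 0.41 to 0.57 for ZNF792, 0.32 to 0.48 for ZNF778 and 0.23 to 0.32 for ZNF142. On the lower side it ran from -0.77 to -0.58 for ZNF804A and from -0.25 to -0.24 for ZNF25. How these calls changed with the setting is given at the end, beside all genes tested. At each criterion plotted in the bar chart of shares, the ZNF share lay below that of all genes tested. The difference in share was not tested.

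**Figure D1:**
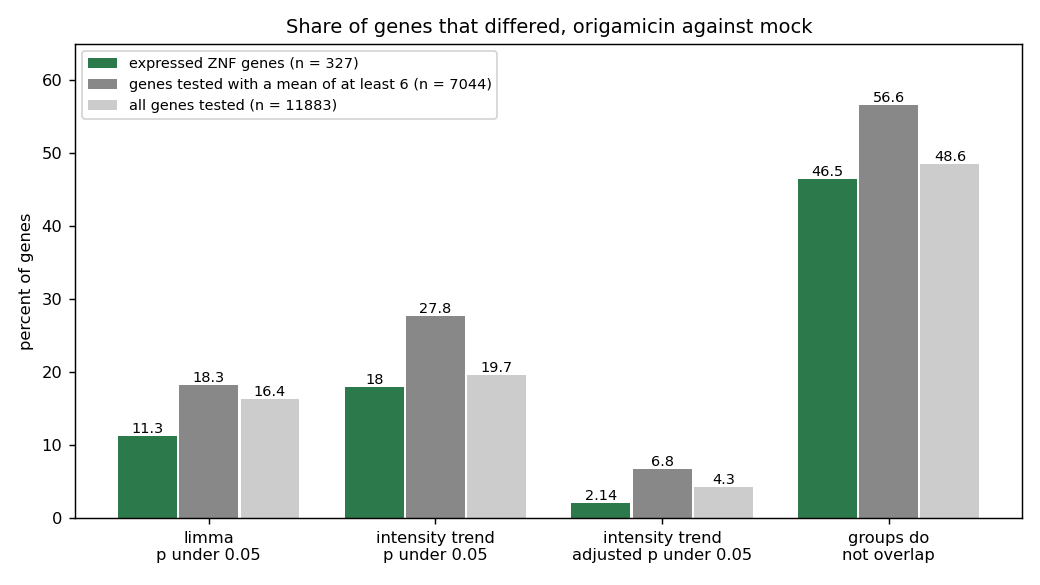
Percent of genes (vertical axis) that met each of 4 criteria in origamicin against mock cells, for the expressed ZNF genes, the genes tested with a mean of at least 6 and all genes tested. The ZNF bars are the lowest of each trio, with 11.3% against 18.3% and 16.4% at an unadjusted limma p under 0.05 and 46.5% against 56.6% and 48.6% for groups that do not overlap.

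ZNF441 and ZNF804A showed the largest changes on the higher and the lower side. ZNF441, a KRAB zinc finger gene on chromosome 19, read 6.61 and 6.72 on the log2 scale in origamicin cells, against 5.90 and 6.07 in mock cells. Its mock mean lay under the limit of 6, so it is a member through its origamicin arrays. Both origamicin arrays lay above both mock arrays, and the fold was 1.60 (log2 change 0.68 ± 0.09 SE, limma adjusted p = 0.13, and 0.018 with an intensity trend). ZNF804A encodes a zinc finger protein expressed in neurons and is best known from genetic studies of schizophrenia. It read 7.47 and 7.66 in origamicin cells, against 8.18 and 8.30 in mock cells, without overlap. The level was 1.59-fold lower (log2 change -0.67 ± 0.10 SE, limma adjusted p = 0.15, and 0.011 with an intensity trend). Only 3 members changed by at least 0.5 in size, or 0.917%, against 2.2% of all genes tested. The third was ZNF675, chosen here by the gap between its arrays, at 5.92 and 6.02 in origamicin cells and 6.22 and 6.83 in mock cells (-0.55 ± 0.22 SE, limma adjusted p = 0.32). The mock arrays of ZNF675 differed by 0.62, more than the group means did. ZNF675 is a member through its mock arrays, since its origamicin mean lay under the limit, as it did for ZNF519.

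**Figure D2:**
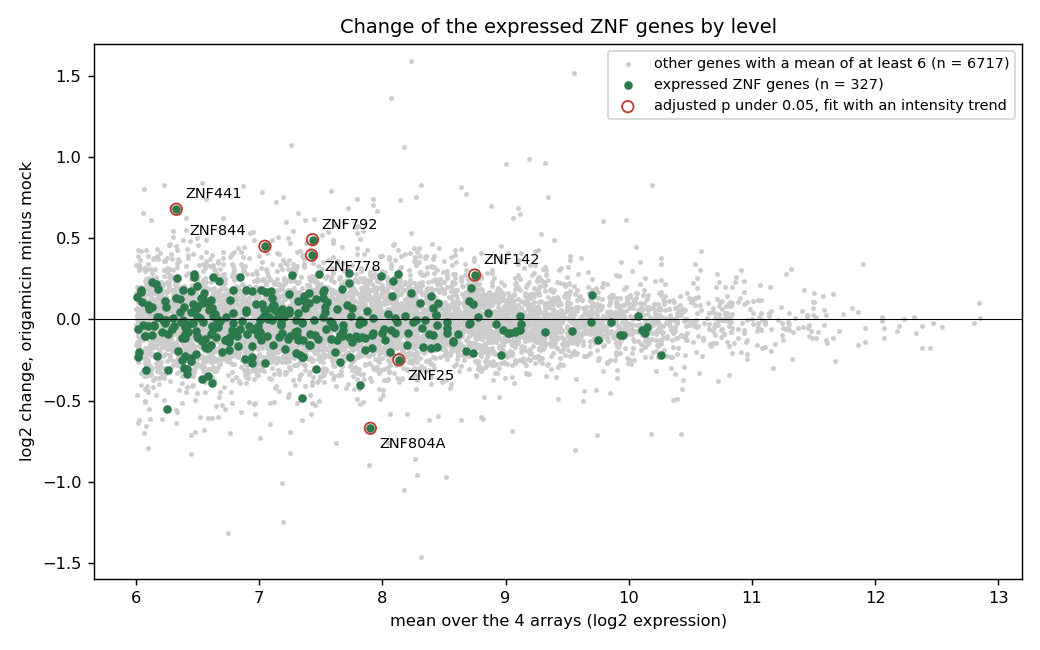
Log2 change, origamicin minus mock (vertical axis), against the mean over the 4 arrays in log2 expression (horizontal axis) for the expressed ZNF genes and, in grey, the other genes with a mean of at least 6. The 7 ringed genes passed an adjusted p of 0.05 in the fit with an intensity trend; the ZNF points run from -0.67 (ZNF804A) to 0.68 (ZNF441), inside the range of the grey points, -1.47 to 1.59.

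ZNF844, a KRAB zinc finger gene, lies in the same stretch of chromosome 19 as ZNF441. Its level was 7.28 and 7.26 in origamicin cells, against 6.76 and 6.88 in mock cells (log2 change 0.45 ± 0.07 SE, limma adjusted p = 0.16, and 0.025 with an intensity trend). These are the members of that stretch whose promoters are shown, with ZNF804A beside them as the gene with the largest change on the lower side. The sequences are RefSeq promoters in GRCh38.p14, 300 bases around the annotated start on the gene's strand (all 3 on the plus strand). ZNF441 is at chr19:11766750-11767049, ZNF844 at chr19:12064481-12064780 and ZNF804A at chr2:184598279-184598578. Capitals mark the CCAAT box (CCAAT or, on the other strand, ATTGG) and the octamer ATGCAAAT, each searched on both strands.
ZNF441: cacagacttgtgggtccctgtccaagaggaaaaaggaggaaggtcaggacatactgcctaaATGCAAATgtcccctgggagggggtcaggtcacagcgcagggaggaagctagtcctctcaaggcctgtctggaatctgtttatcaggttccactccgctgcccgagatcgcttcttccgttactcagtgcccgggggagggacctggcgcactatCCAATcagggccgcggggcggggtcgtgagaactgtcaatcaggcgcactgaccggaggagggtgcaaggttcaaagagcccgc
ZNF844: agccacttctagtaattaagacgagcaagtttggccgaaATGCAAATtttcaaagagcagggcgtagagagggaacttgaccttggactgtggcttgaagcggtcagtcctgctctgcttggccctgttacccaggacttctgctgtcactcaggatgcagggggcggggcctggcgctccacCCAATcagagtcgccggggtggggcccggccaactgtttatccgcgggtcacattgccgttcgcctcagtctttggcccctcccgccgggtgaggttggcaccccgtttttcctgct
ZNF804A: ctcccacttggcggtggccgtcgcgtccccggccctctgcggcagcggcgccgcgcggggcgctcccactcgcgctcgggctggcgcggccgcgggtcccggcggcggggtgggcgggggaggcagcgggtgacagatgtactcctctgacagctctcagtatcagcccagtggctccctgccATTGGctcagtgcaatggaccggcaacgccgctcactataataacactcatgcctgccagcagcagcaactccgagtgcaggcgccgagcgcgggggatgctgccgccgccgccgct
The ZNF441 and ZNF844 windows both hold the octamer, at base 62 and base 40, and a CCAAT box, at base 217 and base 184. The longest identical stretches of these windows were 10 bases, 1 of which covers the octamer. ZNF804A holds a CCAAT box on the other strand, at base 184, and its window is 72.3% G and C, against 59.3% in ZNF441 and 59.0% in ZNF844. The octamer was chosen after the sequences were read. It stood in 9 of the 290 member promoters in the RefSeq table (3.10%), against 1.80% of all 27305 promoters. Those 9 members, ZNF441 and ZNF844 included, had a median log2 change of 0.011.

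Other motifs were searched in the same windows, as a description of letters and not of binding. CCAAT was in 48.3% of the member promoters, against 35.7% of all promoters, and TATAAA in 3.10% against 12%. The E-box CACGTG was in 4.48% against 7.43%, and the CREB site TGACGTCA in 4.83% against 1.98%. The core of the site that ZNF143, itself a zinc finger activator, is known to bind was in 5 member promoters, 1.72% against 0.256%: ZNF180, ZNF277, ZNF286A, ZNF317 and ZNF451. None of these 5 had an unadjusted limma p under 0.05. Members with and without CCAAT had median log2 changes of -0.042 and -0.017. The letters TATAAA were thus rarer, and CCAAT more common, in member promoters than in promoters at large. Member promoters also had more G and C, with a median of 61.5%, against 58.3% for all promoters. The part of this in the motif shares was not tested. The median change of the members with each motif lay between -0.063 and 0.019.

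The other genes that rose with an intensity trend were ZNF792, ZNF778 and ZNF142. ZNF792, a KRAB gene, read 7.63 and 7.73 in origamicin cells, against 7.11 and 7.27 in mock cells (0.49 ± 0.09 SE, limma adjusted p = 0.17, and 0.024 with the trend). ZNF778, also a KRAB gene, read 7.70 and 7.54 in origamicin cells, against 7.21 and 7.24 in mock cells (0.40 ± 0.08 SE, adjusted p = 0.18, and 0.037 with the trend). For both, the lowest origamicin array lay above the highest mock array. ZNF142, which encodes a protein with a long row of fingers, stood at 8.86 and 8.91 in origamicin cells, against 8.66 and 8.56 in mock cells (0.27 ± 0.07 SE, limma adjusted p = 0.21, and 0.044 with the trend). On the lower side, the KRAB gene ZNF25 had 8.01 on both origamicin arrays, against 8.25 and 8.26 on the mock arrays (-0.25 ± 0.06 SE, limma adjusted p = 0.20, and 0.0497 with the trend). The arrays of each group nearly coincided for ZNF25, and its adjusted p with the trend lay just under the threshold.

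Further members with the smallest p on the higher side did not pass either fit. ZNF367, a C2H2 factor linked to the cell cycle, read 8.08 and 8.16 in origamicin cells, against 7.84 and 7.86 in mock cells (log2 change 0.27). ZNF746, known as PARIS, is a substrate of the ubiquitin ligase parkin and a repressor of PPARGC1A. It read 6.26 and 6.29 in origamicin cells, against 6.08 and 6.02 in mock cells (0.22). The rest were ZNF836 (0.27), ZNF611 (0.28), ZNF398 (0.24), ZNF347 (0.26), ZNF79 (0.23), ZNF461 (0.28), ZNF283 (0.25) and ZNF425 (0.23). All 15 on this side had origamicin arrays above both mock arrays, which the choice by p favours.

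Among the 15 on the lower side, besides ZNF804A and ZNF25, the largest changes were those of ZNF551 (-0.49 ± 0.16 SE) and ZNF253 (-0.41 ± 0.11 SE). ZNF551 read 7.09 and 7.12 in origamicin cells, against 7.37 and 7.81 in mock cells, so mock replicate 2 carried much of the size. Its second, dimmer probe set changed by -0.40. ZNF253 read 7.58 and 7.65 in origamicin cells, against 7.89 and 8.15 in mock cells. ZNF22, also known as KROX-26, read 6.77 and 6.84 in origamicin cells, against 7.02 and 7.14 in mock cells (-0.27). ZNF280C, which had the highest mean of all members, read 10.2 on both origamicin arrays, against 10.3 and 10.4 on the mock arrays (-0.22). The remaining values were -0.33 for ZNF556, -0.30 for ZNF330, -0.27 for ZNF92, -0.26 for ZNF681, -0.26 for ZNF853, -0.23 for ZNF581, -0.20 for ZNF114, -0.23 for ZNF519 and -0.22 for ZNF518A. None of these passed, with limma adjusted p from 0.19 for ZNF330 to 0.27 for ZNF551.

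**Figure D3:**
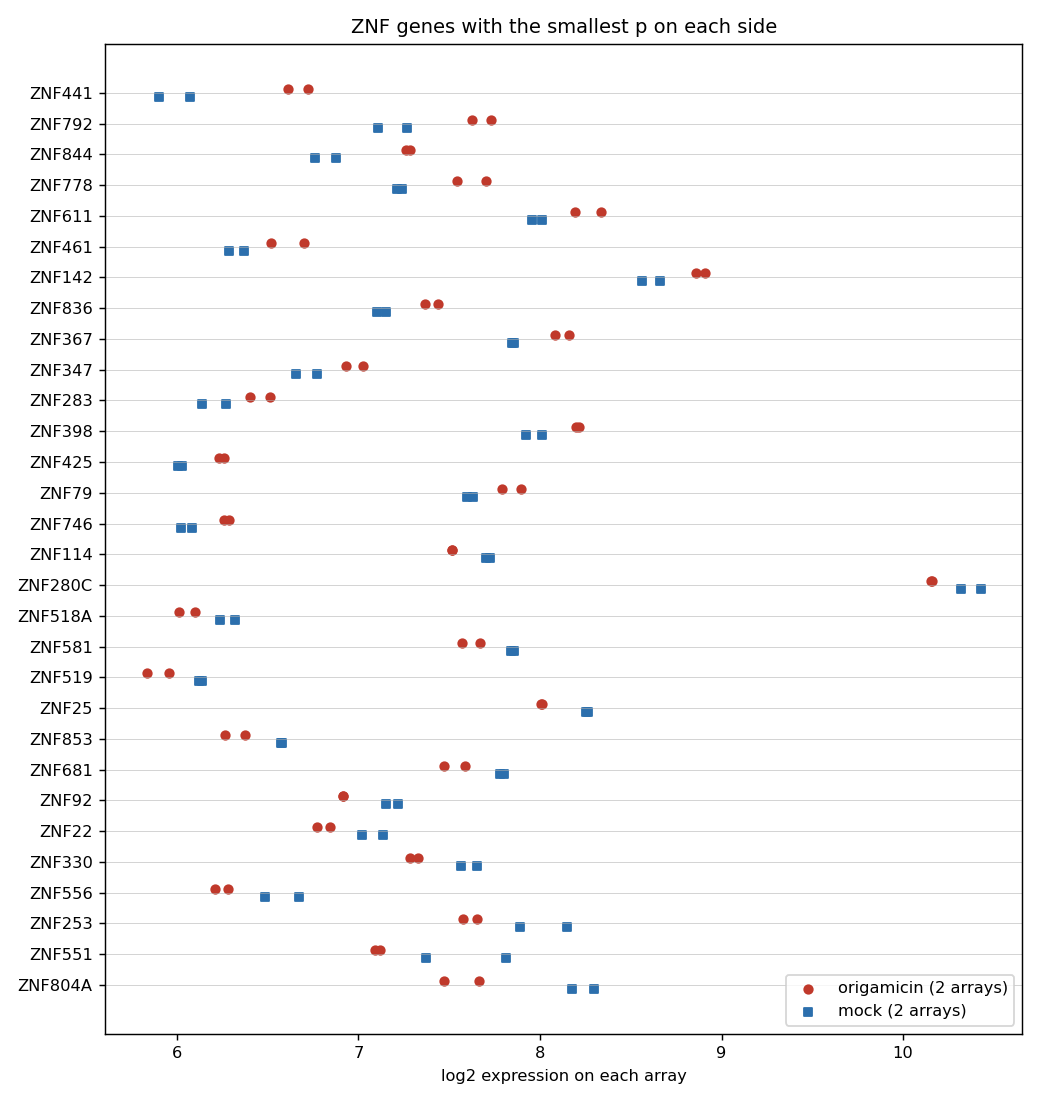
Log2 expression on each array (horizontal axis) for the 15 ZNF genes with the smallest limma p on each side, origamicin as red circles above mock as blue squares within each row, sorted by log2 change. The groups do not overlap in any row; the distance between the mock squares is widest for ZNF551, at 7.37 and 7.81.

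By known role, the members that act at promoters and in chromatin complexes numbered 24 measured genes, of which 7 were higher and 17 lower. Their median log2 change was -0.043, against -0.028 for all members and -0.0072 for all genes tested, and none passed either fit. ZNF580 read 8.01 and 7.92 in origamicin cells, against 8.15 and 8.17 in mock cells (-0.20 ± 0.07 SE), and its neighbour ZNF581 was lower by a like amount. ZNF217, an oncogene product that works with CtBP and CoREST corepressors, read 7.16 and 7.30 in origamicin cells, against 7.39 and 7.53 in mock cells (-0.23 ± 0.09 SE). ZNF384, a transcription factor known from gene fusions in acute leukaemia, went the other way, with 9.79 and 9.76 in origamicin cells, against 9.63 and 9.61 in mock cells (0.15 ± 0.06 SE). Its second probe set changed by 0.16.

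Neural and developmental factors were measured for 11 members, of which 9 were lower (median -0.090), and ZNF804A was the only one past the threshold with an intensity trend. ZNF395, a factor induced in hypoxia, read 7.87 and 7.78 in origamicin cells, against 8.001 and 8.007 in mock cells (-0.18 ± 0.07 SE). ZNF385A, an RNA-binding partner of p53, stood at 7.85 and 7.69 in origamicin cells, against 7.497 and 7.663 in mock cells (0.19 ± 0.10 SE). ZNF521, a regulator of progenitor cells, was at 7.25 and 7.26 in origamicin cells, against 7.32 and 7.39 in mock cells (-0.10 ± 0.07 SE). None of these 3 passed (limma adjusted p = 0.31, 0.43 and 0.51). The mean of the noradrenergic list given above was lower on the same origamicin arrays. Within it HAND2 was higher (0.042), and GATA3 (-0.017) and TH (-0.0052) changed little. The part of this list in these values was not tested.

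Members listed as KRAB repressors of transposable elements and of ZNF clusters were split, with 11 of 21 higher and 10 lower (median 0.052), and none passed. Their KRAB domains were not checked from sequence, and ZNF146 is also in the list of promoter and chromatin factors. ZNF91, which represses SVA elements, read 6.92 and 7.06 in origamicin cells, against 6.84 and 6.77 in mock cells (0.19 ± 0.08 SE, limma adjusted p = 0.36). ZNF425 was at 6.26 and 6.23 in origamicin cells, against 6.03 and 6.01 in mock cells, ZNF460 changed by 0.20 ± 0.08 SE and ZNF267 by -0.23 ± 0.09 SE. Of the 14 members listed as acting on RNA, the ribosome, ubiquitin or the spindle, 5 were higher and 9 lower (median -0.050). The role of each gene in this list was not checked here. ZNF330, a nucleolar protein, had 7.28 and 7.33 in origamicin cells, against 7.56 and 7.65 in mock cells (-0.30 ± 0.07 SE, limma adjusted p = 0.19, and 0.056 with an intensity trend). ZNF346, which binds double-stranded RNA, had 7.86 and 7.89 in origamicin cells, against 7.70 and 7.48 in mock cells (0.28 ± 0.10 SE). ZNF500 and ZNF318 stood at 0.16 and 0.17. The groups did not overlap for 10 of 24 promoter and chromatin factors, 7 of 11 neural and developmental factors, 11 of 21 KRAB repressors and 8 of 14 members of the last list, against 48.6% of all genes tested.

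Of 25 measured corepressor and heterochromatin genes that work with KRAB proteins, 7 were higher and 18 lower, with a median of -0.062. None passed either fit. The DNA methyltransferase DNMT3B read 6.28 and 6.30 in origamicin cells, against 6.68 and 6.59 in mock cells (-0.35 ± 0.07 SE, limma adjusted p = 0.18). PPHLN1, a subunit of the HUSH silencing complex, changed by -0.29 ± 0.08 SE, and SUV39H2, a histone H3 lysine methyltransferase, by -0.25 ± 0.07 SE. Relatives named ZSCAN, ZKSCAN or ZFP numbered 40, of which 16 were higher and 24 lower (median -0.038). Among them ZFP90 rose with an intensity trend (0.22 ± 0.06 SE, adjusted p = 0.040), while ZKSCAN7 and ZFP30 stood at -0.30 each. Of 40 ZBTB genes, 18 were higher and 22 lower (median -0.010). With an intensity trend ZBTB21 fell (-0.51) and ZBTB40 (0.44) and ZBTB8B (0.41) rose, as did ZBTB2, which was chosen after its values were seen, so that 4 of 40 passed, against 4.3% of all genes tested. In the list of other C2H2 factors, 25 of 44 were higher (median 0.021). It held the changes of largest size, EGR1 at 1.08 ± 0.10 SE and INSM2 at -1.06 ± 0.08 SE, with KLF9 at -0.42 ± 0.07 SE, all 3 called with an intensity trend, as was SNAI2 upward (4 of 44). No ZNF member changed as much as EGR1 or INSM2.

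Position in the genome was examined next, with a rule for neighbours set after values had been seen. Chromosome 19 held 154 members, or 47.1%, against 8.07% of the genes tested. Of these 154, 59 were higher and 95 lower (median -0.044), with 8 higher and 10 lower at an unadjusted limma p under 0.05 (11.7% in all, against 16.4% of all genes tested). The 173 members elsewhere had 72 higher and 101 lower (median -0.018). Members whose RefSeq starts lay within 500 kb of the next formed 13 runs of at least 5, which together held 168 members, 9 of the runs on chromosome 19. No difference between runs was tested, and paralogs in a run can share probe targets, which was not examined here.

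Run medians lay between -0.12 and 0.14. The lowest was that of the run from ZNF727 to ZNF92 on chromosome 7, with 5 of 6 members lower and ZNF727 (0.28) higher. Against the mock mean, its median was -0.083 on origamicin replicate 1 and -0.11 on replicate 2. Against single mock arrays it was -0.13 for replicate 1 and -0.12 for replicate 2. The run from ZNF101 to ZNF492, whose genes lie in a large KRAB cluster of chromosome 19, had 14 of 18 members lower and a median of -0.11. Against the mock mean, that median was -0.18 on origamicin replicate 1 and 0.010 on replicate 2, so it rests on 1 array. In the run from ZNF175 to ZNF331, 14 of 22 were lower (median -0.11; -0.11 and -0.048 on the origamicin arrays). There ZNF616 (-0.37) and the next member ZNF836 (0.27) stood on opposite sides, as did ZNF611 (0.28) and ZNF320 (-0.19). The run from ZNF579 to ZNF71 had 7 of 8 lower (median -0.098; -0.069 and -0.14 on the origamicin arrays).

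On the higher side, the run from ZNF786 to ZNF862 on chromosome 7 had 6 of 10 higher (median 0.11), with ZNF398, ZNF425 and ZNF746 at an unadjusted limma p under 0.05, where 7.99% of all genes tested were higher. Against mock replicate 1 alone its median was -0.0091 and against mock replicate 2 it was 0.21. The run from ZNF302 to ZNF792 had 3 of 5 higher (median 0.14), with ZNF792 above the other 4, and its median was 0.013 against mock replicate 1 alone and 0.25 against mock replicate 2. In the run from ZNF653 to ZNF791, ZNF441 and ZNF844 stood apart from the other 11 members, which lay between -0.14 and 0.17, and the median of the run was -0.043. ZNF441 and the members next to it, ZNF823 (-0.044) and ZNF440 (-0.12), lay on opposite sides of 0.

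**Figure D4:**
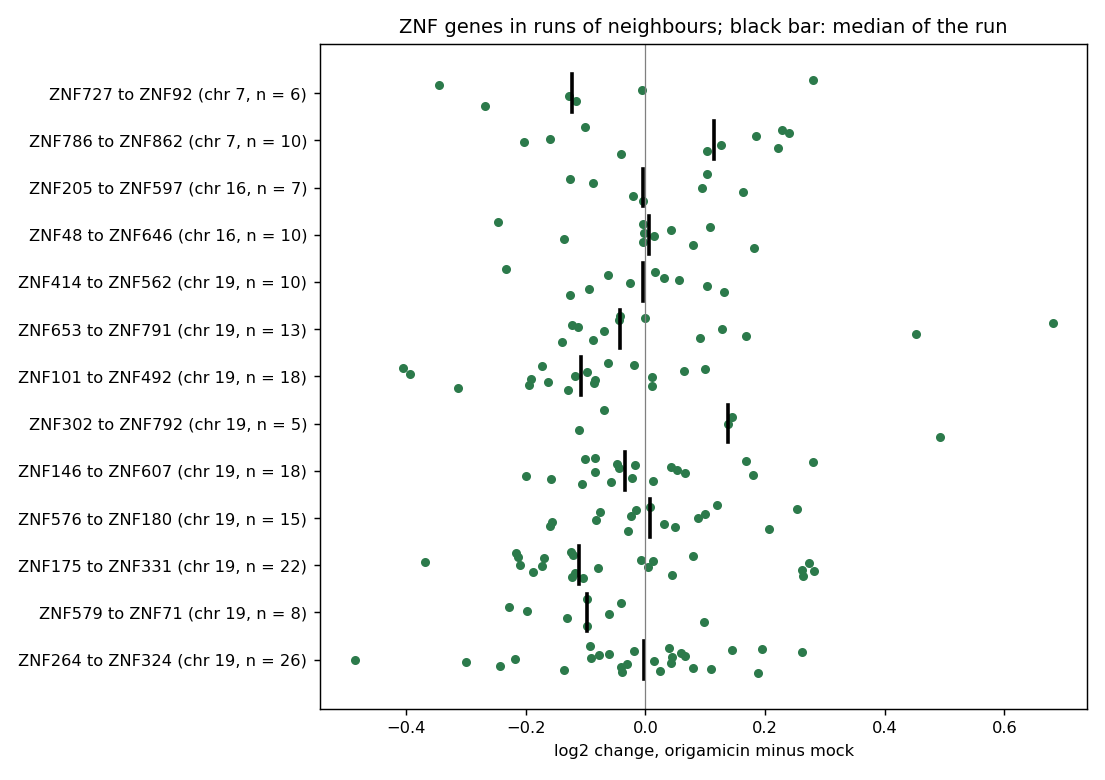
Log2 change, origamicin minus mock (horizontal axis), of the members of 13 runs of neighbouring ZNF genes; within a row the points run from top to bottom in chromosome order and the black bar is the median. Bars lie between -0.12 and 0.14, while single members reach 0.68 (ZNF441).

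In origamicin against mock cells, the median log2 change was -0.032 for the 141 members with a mean from 6 to 7, -0.016 for the 115 from 7 to 8 and -0.051 for the 71 at 8 or more, with 58 higher and 83 lower, 51 and 64, and 22 and 49. A difference between these levels was not tested. The member means ran from 6.01 to 10.3 with a median of 7.15, and 20 members had a mean of at least 9. Besides ZNF280C, the highest means were those of ZNF146 (10.2 and 10.0 in origamicin cells, 10.2 on both mock arrays) and ZNF358 (10.1 on both origamicin arrays, 10.2 on both mock arrays). Probe sets differ in brightness for reasons of sequence, so levels are not ordered between genes. Just inside the limit were ZNF599 (6.009), ZNF519 (6.013) and ZNF718 (6.019), and just outside it ZNF782 (5.995), ZNF709 (5.975) and ZNF81 (5.971).

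Some members had uncertain values. For 12 members a second probe set was named, and in 8 of them both changed in the same direction. The other 4 had opposite signs: ZNF224 (0.087 and -0.030), ZNF322 (0.037 and -0.20), ZNF445 (0.052 and -0.26) and ZNF770 (-0.079 and 0.0025). The largest gaps between arrays of a group were in ZNF732 (5.94 and 6.59 in origamicin cells, 6.63 and 6.51 in mock cells), ZNF547 (6.28 and 6.92 in origamicin cells, 6.41 and 6.28 in mock cells) and ZNF675. In ZNF732 and ZNF547 the origamicin arrays differed by more than the group means did. The transcribed pseudogenes ZNF271P, ZNF542P and ZNF767P stood at 0.021, -0.13 and 0.10, with SEs of 0.076, 0.18 and 0.17.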

How the data were processed

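RNA of 4 cultures was measured, 2 per group. The authors deposited RNA levels on the log2 scale, 1 value per probe set and array. The submitters' processing notes list RMA and limma with no version, and the genome build is not given in the sources used here. Deposited values ran from 0.574 to 14.5 with array medians of 4.37 to 4.42, and were used without further normalization. GEO's platform annotation named 1 gene for 16098 of 53617 probe sets, and all 327 members matched RefSeq by gene ID. Genes whose mean lay under the 40th percentile of all probe sets (3.82) were left out, which left 11883. The comparison used limma 3.58.1 under R 4.3.3, with lmFit and eBayes (single prior variance, two-sided, all 4 arrays, no covariate), and SE is the moderated standard error. The fit was also run on simulated data, with changes larger than any member showed, so that run does not cover changes of the members' size. The number of arrays limits the precision.

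Named genes were the 15 members with the smallest p on each side, 4 per role list (3 for lists of other genes), the 3 with the highest means, the 3 on either side of the limit and the 3 with the widest gap between arrays. Members and lists were chosen with earlier results of these data known. Arrays share replicate numbers, but deviations of same-numbered arrays from their group means had r = -0.023 over the genes tested, so the numbers were not taken to pair them. Alternatives were a replicate block, other filters, renormalization, averaging over probe sets, an intensity trend, robust eBayes, other level limits, an adjusted p of 0.1 and leaving out each array. A planned comparison of genes with a KRAB domain found from protein sequence was not analysed here.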

Additional observations from a re-analysis of the deposited data

How the results depend on the processing

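With all 4 arrays, the count of members with a limma adjusted p under 0.05 was 0 under each alternative, except with an intensity trend. That fit called 7 (2.14%, against 4.3% of all genes tested). In most of the other settings no gene of any kind passed, but 92 of 9269 (0.993%) did under the 60th percentile filter. An adjusted p of 0.1 also gave 0 members, against 0.446% of all genes tested. Members with an unadjusted p under 0.05, 37 in the chosen fit, numbered 59 with an intensity trend, 34 with a replicate block, 24 for members with a mean of at least 7 and 18 to 32 when 1 array was left out. The median log2 change was -0.028 in the chosen fit and -0.044 with equal array medians, where it was -0.023 over all genes tested. It ran from -0.047 to -0.0082 when 1 array was left out. Without origamicin replicate 1 the median of the members (-0.0082) was not below that of all genes tested (-0.010). With each other array left out it was. Members without overlap were 152 of 327 in the chosen setting (46.5%, against 48.6% of all genes tested). At a mean of at least 7 they numbered 95 of 186, so the lower count goes with fewer members. When 1 array was left out they numbered 229 to 256 of 327, since a group of 1 overlaps less. The share of all genes tested is not given for these settings, so these counts are not set against it.

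With an intensity trend, 3 of the 7 calls remained when the replicate block was added and 5 without the filter. Under the 60th percentile filter there were 11, these 7 included. The 511 of all genes tested became 277, 397 and 667. With each array left out in turn, calls were fewer among the members and over all genes tested. Not all of the members then called were among the 7. Those 7 settings for the trend were chosen after seeing the data. Across them ZNF804A passed in 5, ZNF441 and ZNF792 in 4, ZNF778 in 3, ZNF844 in 2, and ZNF142 and ZNF25 in 1 each. The cause of these differences was not tested. With an array left out, the lone array is assumed to vary like the other group. The KRAB comparison was not run.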
